A study of Mus musculus with 8 samples.

Results

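The response of control mouse sciatic nerve to transection was read from 4 of the 8 arrays of a study of the transcription factor c-Jun in injured nerve. The 4 were chosen by their titles, which mark them as control, cut or uncut, replicates 1 and 2. In adult mice the nerve was cut at the sciatic notch, and 7 days later the distal stump and the intact nerve of the opposite side were taken. Total RNA of a 10 mm piece was hybridised as biotin-labelled cRNA to Affymetrix mouse expression arrays, 1 pool of nerves from 4 or 6 mice to an array. The labels give the control animals' genotype as WT, and the other 4 arrays, which share the injury, time and tissue, come from mice labelled c-Jun KO. The sources used here give neither the strain and sex of the mice nor the promoter that drives the deletion. The design describes the pair of pools in each group as independent samples, so n = 2 throughout, and p-values measure the spread between pools.

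A cut nerve fibre loses its axon below the injury, a process called Wallerian degeneration. Schwann cells that had wrapped the axon in myelin shut down the myelin programme, divide, break down their own sheaths and turn to making trophic factors, adhesion molecules and signals that draw in macrophages. Macrophages take up lipid-rich debris, while fibroblasts, the perineurial sheath and vessels are remodelled around the empty tubes along which axons may later regrow.

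The labels name the tissue as adult Schwann cell and, in a description, as schwannoma cells, although the protocol describes a whole nerve segment. Sox10, the transcription factor that defines the Schwann lineage, had log2 values of 10.98 and 11.16 in the uncut pools and 11.10 and 10.96 in the cut pools. The calcium-binding glial protein gene S100b stood at 12.14 and 12.21 in the uncut pools and 11.02 and 11.49 in the cut pools. Both were therefore bright on all 4 arrays, but so were genes of other cells: over 29 macrophage markers the mean log2 value per array was 8.81 and 9.08 in uncut and 10.72 and 10.69 in cut nerve, and over 27 contractile genes of skeletal muscle it was 10.43 and 10.71 in uncut and 11.52 and 11.98 in cut nerve. In such a mixture, fewer cells of a type and less RNA per cell cannot be told apart.

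Values are log2 expression values of the brightest probe set of each gene, so a difference of 1 is a 2-fold change, and levels are compared only within a gene. Array medians lay between 6.59 and 6.65 on this scale and the 25th percentiles between 4.95 and 5.01, and a level under the latter is called dim below. Replicate arrays correlated across genes with r = 0.984 to 0.989, and cut with uncut control arrays with r = 0.855 to 0.878. Genes are called higher or lower where limma, a linear model fitted across all genes and all 8 arrays, gave a two-sided Benjamini-Hochberg adjusted p under 0.05.

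In control nerve 4877 of 12093 genes tested were called, 40.3% of them, with 2759 higher (22.8%) and 2118 lower (17.5%) after the cut. The median change of all genes was 0.05. Of the called genes 1511 changed at least 2-fold (12.5% of those tested), 830 upwards and 681 downwards. At least 4-fold changes numbered 262 and 165, at least 16-fold changes 28 and 21, and at least 64-fold changes 4 and 1. Both cut pools lay above both uncut pools in 5013 genes and below them in 3823. With 2 pools in each group such a separation is common. Where it is mentioned below, it describes a gene and adds no support to its call. The median SD between replicate pools was 0.10 in cut and 0.089 in uncut nerve, but 270 genes had an SD over 0.5 between the cut pools. The called genes had 3653 further probe sets, of which 2139 were called in the same direction and 52 in the opposite one. Slc44a1, Pde4dip, Hivep3 and Cobl were the genes with at least 2-fold changes that had such an opposite probe set. Without 1 of the 8 arrays the number called lay between 3388 and 4715.

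Genes were grouped into 54 lists by pathway or cell type, and each list is read below by its counts beside the 22.8% and 17.5% of all genes. Lists share members, and no list was tested as a set. A count near the shares of all genes is not read as a result about its list.

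**Figure D1:**
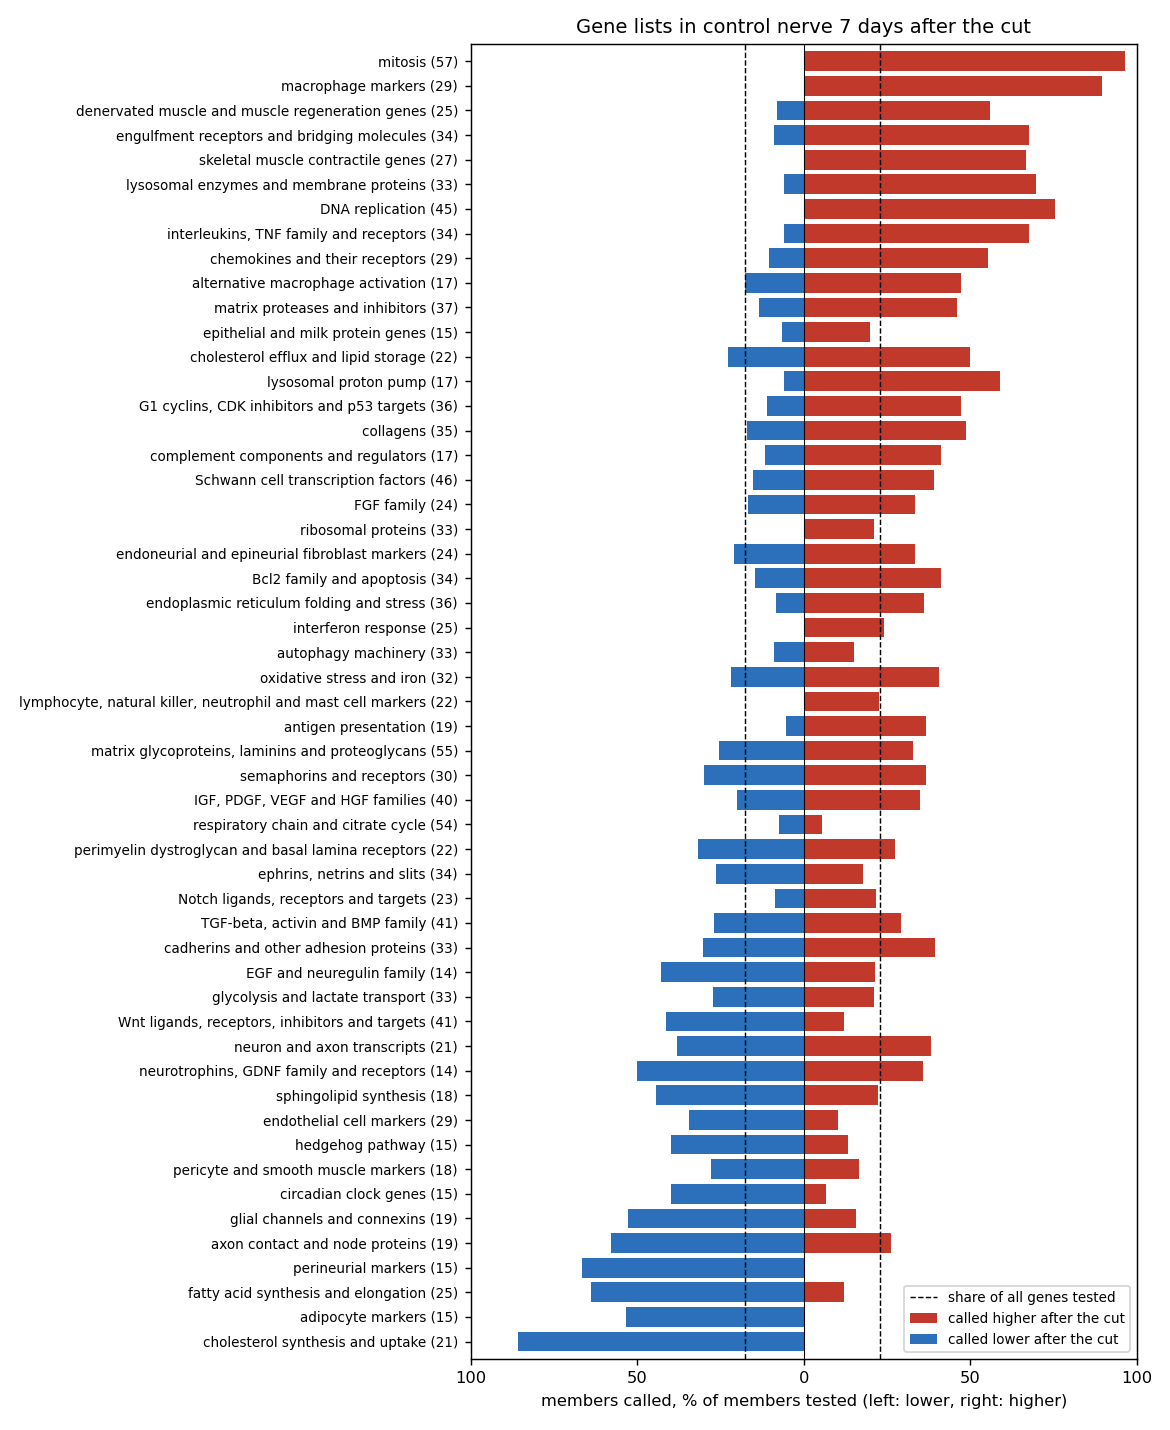
Share of the tested members of each gene list called higher (right, red) or lower (left, blue) in control nerve 7 days after the cut, in percent, with the number tested in brackets and dashed lines at the share of all genes tested (22.8% higher, 17.5% lower). Mitosis (55 of 57 higher) and macrophage markers (26 of 29 higher) stand at one end, and cholesterol synthesis (18 of 21 lower) at the other.

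Among the 15 highest called changes were the matrix genes Tnc and Cthrc1, the granzyme gene Gzmb and muscle genes. Cthrc1, which encodes a secreted collagen triple helix repeat protein, had 6.32 and 6.74 in the uncut pools and 11.80 and 11.59 in the cut pools, a rise of log2 fold change 5.16, SE 0.17, limma adjusted p = 2.4e-06. Gria1, an AMPA glutamate receptor subunit, had 4.07 and 4.71 in the uncut pools and 9.36 and 8.87 in the cut pools (log2 fold change 4.73, SE 0.24, limma adjusted p = 1.1e-05). Atp6v0d2, a proton pump subunit best known from osteoclasts and macrophages, had 5.88 and 6.24 in the uncut pools and 11.11 and 11.07 in the cut pools (log2 fold change 5.03, SE 0.16, limma adjusted p = 1.9e-06). In each of the 3 the cut pools lay far above both uncut pools, with those of Gria1 the least close to one another. The simple keratin gene Krt18 was less even between cut pools, with 6.05 and 5.75 in the uncut pools and 10.35 and 11.27 in the cut pools (log2 fold change 4.91, SE 0.33, limma adjusted p = 3.4e-05). The muscle genes Ankrd1, Myf6, Ppp1r27, Sln and Chrna1, also among the 15, had cut pools 0.67 to 2.90 apart, replicate 2 above replicate 1 in each.

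The 15 lowest differed in how close their replicates were. The SD between cut pools was 0.46 for Cdh1 and 0.47 for Frmd3, and the 3 genes described next were more even. Cnmd, the cartilage and connective tissue protein chondromodulin, had 9.38 and 9.08 in the uncut pools and 4.44 and 4.66 in the cut pools (log2 fold change -4.68, SE 0.13, limma adjusted p = 1.7e-06). Slc6a15, a transporter of neutral amino acids, had 10.56 and 10.27 in the uncut pools and 6.07 and 5.99 in the cut pools (log2 fold change -4.39, SE 0.22, limma adjusted p = 9.8e-06). Kif5c, a heavy chain of the transport motor kinesin, had 10.44 and 10.25 in the uncut pools and 6.12 and 6.03 in the cut pools (log2 fold change -4.27, SE 0.16, limma adjusted p = 3.4e-06). The uncut pools lay above the cut pools in all 3, with no overlap. Dusp15, a dual-specificity phosphatase, fell by 4.33, Frmd3 by 4.43, Pdzph1 by 4.51 and Prr15 by 4.34. Levels of Clca3a2, Wif1, Olig1, Gdnf and Gria1 in uncut nerve, and of Cnmd, Pdzph1, Frmd3 and Prr15 in cut nerve, were dim, and the size and rank of changes that reach so low are uncertain.

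**Figure D2:**
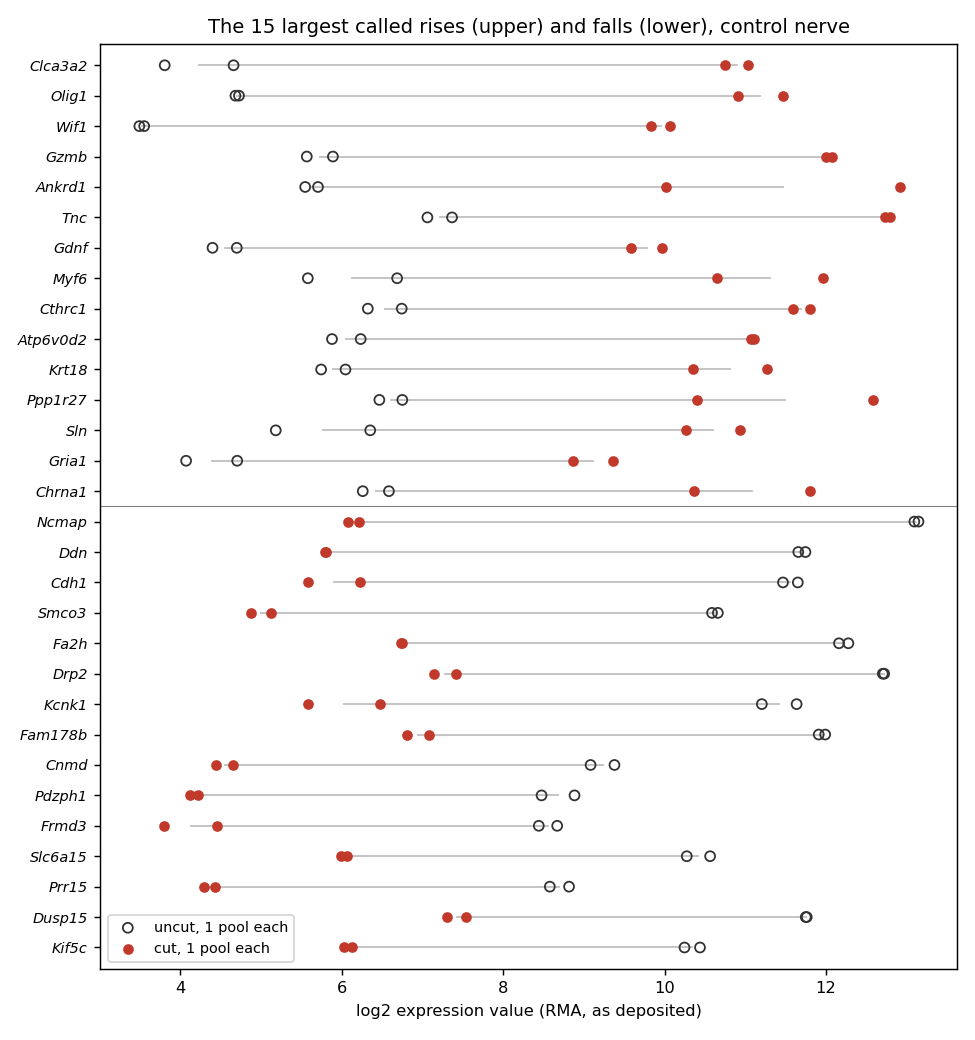
Log2 expression values of the 15 highest and 15 lowest called changes in control nerve, 1 point per pool, open circles uncut and filled circles cut, with a grey line between group means. The 30 genes were chosen as the largest called changes, so the lack of overlap between their groups is no separate support. The muscle genes Ankrd1, Ppp1r27 and Chrna1 have the widest gaps between cut pools.

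Genes by which a myelinating Schwann cell holds its axon mostly fell. Of 19 tested, 11 fell and 5 rose, with a median change of -0.70 (the count of risers was 3 without control uncut replicate 2). Mag, a sialic acid-binding receptor of the inner myelin membrane, had 9.60 and 9.56 in the uncut pools and 6.70 and 6.66 in the cut pools (log2 fold change -2.90, SE 0.18, limma adjusted p = 2.4e-05). Cntn1, a contactin of the paranodal junction, had 8.38 and 8.36 in the uncut pools and 5.76 and 5.48 in the cut pools (log2 fold change -2.75, SE 0.17, limma adjusted p = 2.4e-05). Cadm3, an adhesion partner on the axon side, changed by -2.56, its glial partner Cadm4 by -1.57, and Nfasc, which holds node and paranode together, by -2.51. Not all node proteins went down. Nrcam, an adhesion molecule of the node, had 8.49 and 8.36 in the uncut pools and 10.66 and 10.83 in the cut pools (log2 fold change 2.33, SE 0.15, limma adjusted p = 3.3e-05), and Cadm1 changed by 0.86 and Epb41l3, a cytoskeletal anchor of the paranode, by 0.71. Lgi4, a Schwann cell ligand needed for myelination, had a change of -0.09 that did not pass (limma adjusted p = 0.77).

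Ion channels and connexins of glia followed the same direction, with 10 of 19 lower and 3 higher (median -0.68). The potassium channel gene Kcnk1 had 11.64 and 11.21 in the uncut pools and 6.47 and 5.58 in the cut pools (log2 fold change -5.39, SE 0.27, limma adjusted p = 9.8e-06). Gjb1, the connexin that links the layers of the myelin sheath, had 9.84 and 9.88 in the uncut pools and 7.66 and 7.66 in the cut pools (log2 fold change -2.20, SE 0.11, limma adjusted p = 9.8e-06), and the chloride channel gene Clcn2 had 8.67 and 8.53 in the uncut pools and 6.31 and 5.97 in the cut pools (log2 fold change -2.46, SE 0.16, limma adjusted p = 2.8e-05). All 3 had both cut pools below both uncut pools. Further genes that fell were Kcnj13 (-2.13), Scn7a (-1.99) and Kcna2 (-1.87). The calcium channel subunit Cacna2d1 rose by 1.11.

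Receptors that bind the basal lamina moved in both directions. Of 22 genes of the dystroglycan complex and integrins, 6 rose and 7 fell (4 fell without control cut replicate 2), with a median of 0.00. Itgb4 and Itga6, the chains of the laminin receptor of mature Schwann cells, changed by -1.71 and -1.28. Itgb4 had 11.52 and 10.97 in the uncut pools and 9.80 and 9.27 in the cut pools, and Itga5, a chain of the fibronectin receptor, had 6.97 and 7.07 in the uncut pools and 8.38 and 8.05 in the cut pools (log2 fold change 1.19, SE 0.18, limma adjusted p = 0.0016). Itgb8, which activates latent TGF-beta, rose by 1.14. Drp2, the dystrophin-related protein under the outer myelin membrane, fell by 5.43 and Utrn by 1.49, while dystroglycan itself, Dag1, had 12.47 and 12.36 in the uncut pools and 12.54 and 12.34 in the cut pools (change 0.02, limma adjusted p = 0.9). Sgca rose by 1.82. Alpha-sarcoglycan, its product, is a muscle protein, and the muscle contractile markers were also higher in the cut pools (10.43 and 10.71 in uncut and 11.52 and 11.98 in cut nerve), and their part in this value was not tested.

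The 3 branches of lipid synthesis that supply myelin were lower to different extents. Cholesterol synthesis and uptake had 18 of 21 genes lower (median -1.90), fatty acid synthesis 16 of 25 lower and 3 higher (median -1.003), and sphingolipid synthesis 8 of 18 lower and 4 higher (median -0.21). Only 1 sphingolipid gene rose without control cut replicate 1 or without control uncut replicate 2.

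In the cholesterol pathway the fall spanned early and late steps. Hmgcs1, which makes HMG-CoA, had 13.38 and 13.55 in the uncut pools and 10.83 and 10.80 in the cut pools, Sqle, which oxidises squalene, had 10.50 and 10.38 in the uncut pools and 8.78 and 8.70 in the cut pools, and Sc5d, a late desaturase, had 10.86 and 10.87 in the uncut pools and 8.70 and 8.92 in the cut pools. In each, the uncut pools were within 0.172 of one another and both stood at least 1.60 above the cut pools. The changes were -2.65, -1.70 and -2.06. The regulators Srebf2, the transcription factor of the pathway, and Insig1, which helps to retain it in the endoplasmic reticulum, fell by 1.25 and 1.72. Dhcr7, Mvk and Ebp did not pass, at -0.49, -0.33 and 0.11.

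A sterol regulatory element is the DNA motif that SREBP factors bind, searched here as CACNCCAC on both strands of the 250 bases before each gene's first listed start in RefSeq (build GRCm38.p6). It was present in 2 of 17 cholesterol genes with a window, 3 of 22 fatty acid genes and 5.33% of all 9729 genes with a window. The Hmgcs1 window is shown because the gene fell and holds the motif, whose bases are in capitals. It lies on the plus strand at chr13:119690101-119690350, and the match begins 136 bases before the start. A match describes letters, not a bound site.
Hmgcs1: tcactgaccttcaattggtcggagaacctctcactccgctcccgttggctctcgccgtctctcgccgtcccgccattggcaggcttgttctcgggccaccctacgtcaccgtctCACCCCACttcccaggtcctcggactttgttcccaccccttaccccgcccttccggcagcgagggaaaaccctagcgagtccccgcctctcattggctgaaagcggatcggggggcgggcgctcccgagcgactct

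Fatty acid genes fell along the chain of synthesis. Fasn, fatty acid synthase, had 12.76 and 13.06 in the uncut pools and 11.75 and 10.10 in the cut pools (log2 fold change -1.99, SE 0.47, limma adjusted p = 0.012), with the lower of the cut pools far below the other, and the call was lost without control uncut replicate 2 (limma adjusted p = 0.065). Elovl4, an elongase of very long chains, had 8.54 and 8.90 in the uncut pools and 5.30 and 5.01 in the cut pools (log2 fold change -3.57, SE 0.17, limma adjusted p = 8.1e-06), and Scd2, the stearoyl desaturase of neural tissue, had 13.89 and 13.91 in the uncut pools and 12.87 and 12.87 in the cut pools (log2 fold change -1.03, SE 0.10, limma adjusted p = 0.00022). Both were even within groups. Elovl1 and Elovl7 fell by 1.59 and 3.27, and Fads1, a desaturase of polyunsaturated chains, by 1.63. Acsl6, an acyl-CoA ligase found in muscle and brain, went the other way with 6.40 and 6.25 in the uncut pools and 8.93 and 10.30 in the cut pools (log2 fold change 3.29, SE 0.49, limma adjusted p = 0.0016), and its higher cut pool was the one with higher muscle markers (11.98 against 11.52 in the mean of the muscle list). Adipocyte markers, which share several of these enzymes, moved too: 8 of 15 fell, and their mean per array was 10.96 and 10.78 in uncut and 9.92 and 9.26 in cut nerve. Neither their part in these values nor that of muscle was tested.

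In sphingolipid synthesis, Ugt8a, which makes the myelin lipid galactosylceramide, had 13.17 and 13.35 in the uncut pools and 10.10 and 9.86 in the cut pools (log2 fold change -3.28, SE 0.13, limma adjusted p = 3.9e-06), and Gal3st1, which sulphates it, had 9.62 and 9.48 in the uncut pools and 8.08 and 7.72 in the cut pools (log2 fold change -1.65, SE 0.19, limma adjusted p = 0.00044). Both fell, with no overlap between groups. Ugcg, which makes glucosylceramide from the same precursor, had 7.44 and 7.51 in the uncut pools and 9.33 and 9.51 in the cut pools (log2 fold change 1.95, SE 0.11, limma adjusted p = 1.5e-05). It rose. The first enzyme of the pathway, serine palmitoyltransferase, showed no call in its subunits Sptlc1 (-0.07) and Sptlc2 (-0.24). Among ceramide synthases Cers2, which uses very long chains, and Cers4 fell by 0.95 and 1.29.

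**Figure D3:**
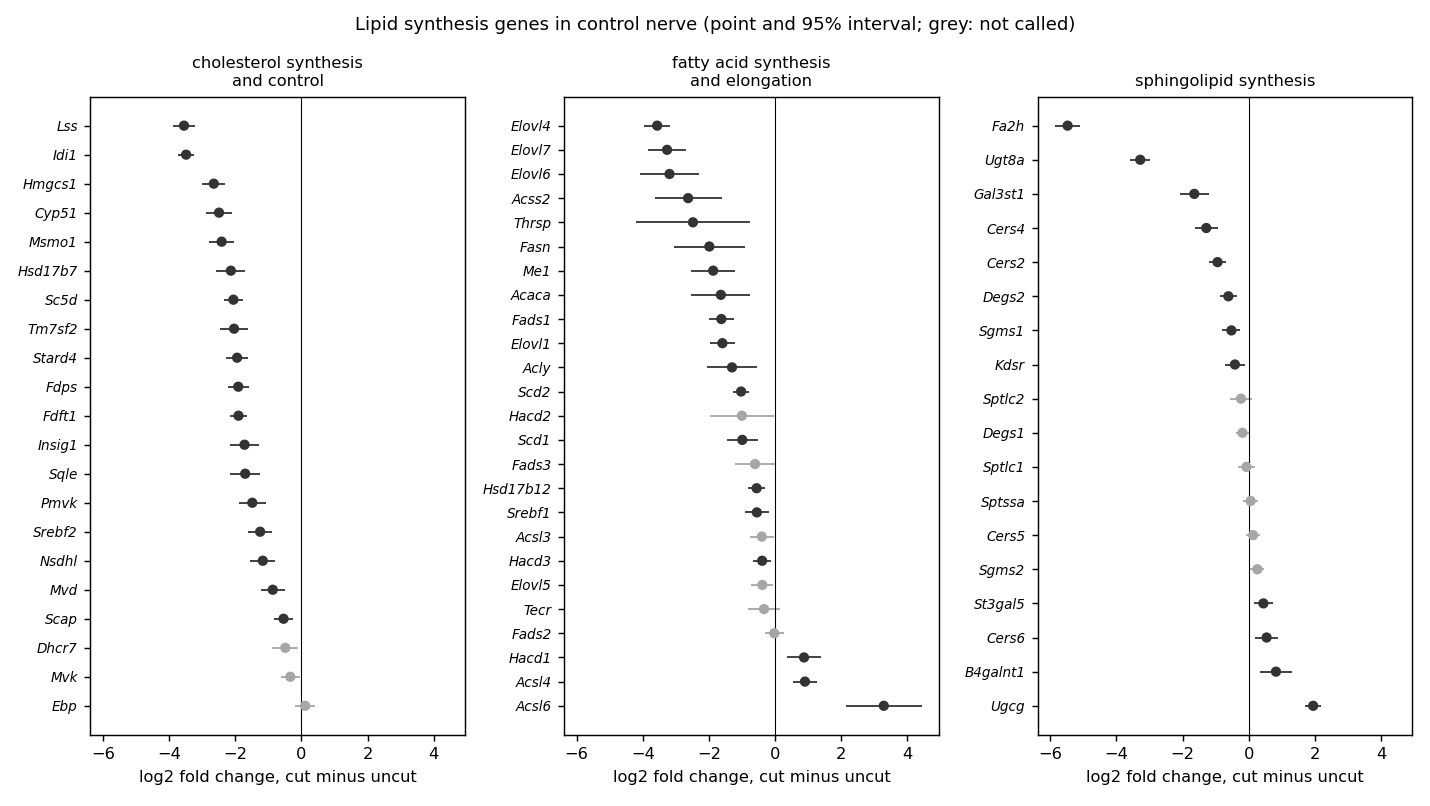
Log2 fold change (cut minus uncut control nerve, with its 95% interval from limma) of each tested gene of cholesterol, fatty acid and sphingolipid synthesis, called genes in black and others in grey. In the cholesterol panel 18 of 21 genes are called lower, while the sphingolipid panel runs from Fa2h at -5.48 to Ugcg at 1.95.

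Genes that move cholesterol out of cells or store lipid were higher in part. Of 22, 11 rose and 5 fell, with a median of 0.38 (at most 1 fell without control cut replicate 2 or control uncut replicate 1). Abca1, the exporter that loads cholesterol onto apolipoproteins, had 11.67 and 11.53 in the uncut pools and 13.36 and 13.49 in the cut pools (log2 fold change 1.83, SE 0.13, limma adjusted p = 4.5e-05). Apoe had 12.91 and 12.68 in the uncut pools and 14.01 and 13.82 in the cut pools (log2 fold change 1.12, SE 0.16, limma adjusted p = 0.0014) and Plin2, a coat protein of lipid droplets, 11.15 and 11.09 in the uncut pools and 12.76 and 12.70 in the cut pools (log2 fold change 1.61, SE 0.11, limma adjusted p = 3.3e-05). The cut pools were above the uncut pools in all 3. Apoc2 rose by 2.95, the scavenger receptor Msr1 by 2.50, the fatty acid-binding protein Fabp5 by 1.54 and the lysosomal acid lipase Lipa by 1.33.

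Lysosomal enzymes rose broadly. Of 33 lysosomal enzymes and membrane proteins 23 rose and 2 fell, with a median of 1.01 (1 fell without control cut replicate 2 or control uncut replicate 1). Ctsd, an aspartic protease of the lysosome, had 12.03 and 11.87 in the uncut pools and 13.77 and 13.68 in the cut pools (log2 fold change 1.78, SE 0.11, limma adjusted p = 2.8e-05). Psap, the precursor of the saposins that help enzymes degrade sphingolipids, had 11.27 and 11.57 in the uncut pools and 13.14 and 13.14 in the cut pools (log2 fold change 1.72, SE 0.12, limma adjusted p = 4.2e-05), and Gusb, beta-glucuronidase, had 9.16 and 9.11 in the uncut pools and 11.44 and 11.11 in the cut pools (log2 fold change 2.14, SE 0.18, limma adjusted p = 8.8e-05). The pools of each group were within 0.335 of one another in these 3 genes. Ctss, a cathepsin of macrophages and other antigen-presenting cells, rose by 2.68, and Lgmn by 2.38. The membrane proteins Lamp1 and Lamp2, present in lysosomes of all cells, had changes of 0.15 and 0.27 that did not pass. Macrophage markers were higher in the same pools (8.81 and 9.08 in uncut and 10.72 and 10.69 in cut nerve), and their part in the lysosomal values was not tested.

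The proton pump that acidifies lysosomes had 10 of 17 subunits higher and 1 lower, with smaller changes (median 0.37). Its count of risers was 6 without control cut replicate 1, without control cut replicate 2 or without control uncut replicate 2. Apart from Atp6v0d2, the largest rises were in Atp6v1a (0.94), Atp6v1b2 (0.86) and Atp6v0b (0.74). Among autophagy genes 5 of 33 rose and 3 fell. Gabarapl1, a ubiquitin-like protein of the autophagosome, fell by 0.98, Wipi1 rose by 0.65, and the core genes Becn1, Ulk1 and Atg5 did not pass, at 0.01, 0.24 and 0.30. The 5 autophagy rises were 1 without control cut replicate 2, 2 without control cut replicate 1 or control uncut replicate 2, and 3 without control uncut replicate 1. Tfeb, a transcription factor of lysosomal genes, had 8.31 and 8.44 in the uncut pools and 8.29 and 8.39 in the cut pools (change -0.03, limma adjusted p = 0.81).

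The CLEAR element through which TFEB acts was searched as TCACGTG on both strands of the same windows. It was in 5 of 30 lysosomal genes and 2 of 11 proton pump genes, against 4.91% of all genes with a window. The window of Ctsd is shown because that gene rose and has 3 matches, 2 of them overlapping on opposite strands, in capitals. It lies on the minus strand at chr7:142387828-142388077, and the nearest match begins 98 bases before the start.
Ctsd: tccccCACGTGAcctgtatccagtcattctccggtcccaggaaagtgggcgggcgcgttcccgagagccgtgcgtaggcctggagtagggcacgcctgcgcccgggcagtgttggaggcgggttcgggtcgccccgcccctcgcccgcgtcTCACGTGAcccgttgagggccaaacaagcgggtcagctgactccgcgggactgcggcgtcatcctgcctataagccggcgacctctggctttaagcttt

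Receptors for engulfment were higher, 23 of 34, with 3 lower and a median of 1.49. Clec7a, a receptor for fungal and other glycans on myeloid cells, had 7.81 and 8.37 in the uncut pools and 11.62 and 11.44 in the cut pools (log2 fold change 3.44, SE 0.20, limma adjusted p = 1.9e-05). Lgals3, the lectin galectin-3, had 10.83 and 10.95 in the uncut pools and 14.12 and 14.20 in the cut pools (log2 fold change 3.27, SE 0.10, limma adjusted p = 1.8e-06). Megf10, an engulfment receptor of glia, had 7.85 and 7.82 in the uncut pools and 9.90 and 9.98 in the cut pools (log2 fold change 2.10, SE 0.10, limma adjusted p = 9.8e-06). All cut values were above all uncut values. The TAM receptor Axl rose by 0.97 and the bridging protein Pros1 by 1.33, whereas Gas6, the other TAM ligand, had 12.72 and 12.49 in the uncut pools and 12.04 and 11.73 in the cut pools and fell by 0.72, a call lost without control cut replicate 2 (limma adjusted p = 0.068) or control uncut replicate 1 (then 0.0715). Mertk did not pass (0.06). The Fc receptors Fcgr1, Fcgr3 and Fcgr4 rose by 2.49, 1.89 and 2.78, and Havcr2, dim in uncut nerve, by 2.54. Macrophage markers as a list rose in 26 of 29 genes (median 1.85), among them Ms4a7 (3.33) and Cd53 (2.68), with Cd163, Siglec1 and Ccr2 not passing (-0.46, 0.08 and 0.84).

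Of 17 complement genes 7 rose and 2 fell, a smaller share of falls than the 17.5% of all genes (1 fell without control cut replicate 2 or without control uncut replicate 1). The C3a receptor gene C3ar1 had 8.07 and 8.52 in the uncut pools and 11.06 and 11.16 in the cut pools (log2 fold change 2.82, SE 0.15, limma adjusted p = 1.2e-05), and C1qb, a chain of C1q, had 10.27 and 10.29 in the uncut pools and 12.55 and 12.46 in the cut pools (log2 fold change 2.22, SE 0.24, limma adjusted p = 0.00031). Cd59a, which blocks the membrane attack complex, had 11.27 and 11.34 in the uncut pools and 9.92 and 9.93 in the cut pools (log2 fold change -1.38, SE 0.13, limma adjusted p = 0.00019), so that both cut pools were below both uncut pools. The C1 proteases C1ra and C1s1 did not pass (0.04 and -0.04). In antigen presentation 7 of 19 genes rose and 1 fell, H2-DMa by 1.18. The risers numbered 4, 2 and 3 without control cut replicate 1, control cut replicate 2 and control uncut replicate 1. Ifi30, a lysosomal thiol reductase, rose by 0.94, and the class I genes B2m, H2-K1 and H2-D1 had changes of -0.13, -0.05 and -0.09 that did not pass.

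Chemokines and their receptors had 16 of 29 higher and 3 lower. Ccl2, which attracts monocytes, had 6.96 and 7.45 in the uncut pools and 9.46 and 9.32 in the cut pools (log2 fold change 2.19, SE 0.19, limma adjusted p = 0.00013). Cxcr4, the receptor of CXCL12, had 6.87 and 7.42 in the uncut pools and 9.41 and 9.68 in the cut pools (log2 fold change 2.40, SE 0.34, limma adjusted p = 0.0013), and its ligand gene Cxcl12 did not pass (-0.09). Ccl27a had 7.90 and 7.89 in the uncut pools and 6.45 and 6.44 in the cut pools (log2 fold change -1.46, SE 0.20, limma adjusted p = 0.00099), a fall with nearly identical replicates. The decoy receptor Ackr1, of venules, fell by 1.17, and Ccl8, Ccl12 and Ccr1 rose by 3.96, 1.86 and 1.48.

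Of 34 interleukin and TNF family genes and receptors 23 rose and 2 fell (1 fell without control cut replicate 1, control cut replicate 2 or control uncut replicate 2). Tnfrsf12a, the receptor of TWEAK, had 8.22 and 8.39 in the uncut pools and 10.10 and 10.44 in the cut pools (log2 fold change 1.97, SE 0.16, limma adjusted p = 8.8e-05), and Clcf1, a ligand of the CNTF receptor complex, had 6.69 and 6.82 in the uncut pools and 8.04 and 8.29 in the cut pools (log2 fold change 1.41, SE 0.17, limma adjusted p = 0.00054). The leukaemia inhibitory factor gene Lif rose by 1.26, while Lifr, the receptor it shares with CNTF, had 11.48 and 11.41 in the uncut pools and 10.54 and 10.38 in the cut pools and fell by 0.98. Il6st, the common signalling chain, and Cntfr did not pass (0.23 and -0.30). Among genes of alternatively activated macrophages 8 of 17 rose and 3 fell (1 fell without either control cut replicate or without control uncut replicate 2). Arg1, arginase 1, had 4.82 and 5.36 in the uncut pools and 8.35 and 7.98 in the cut pools (log2 fold change 3.08, SE 0.20, limma adjusted p = 3e-05), Clec4n rose by 2.32 and Socs3 by 1.77. Macrophage markers were higher in the same cut pools, and some of them are also members of these lists. Their part was not tested.

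Growth factors and their receptors are given by family. In the GDNF family the ligand gene Gdnf had 4.70 and 4.40 in the uncut pools and 9.97 and 9.59 in the cut pools (log2 fold change 5.23, SE 0.21, limma adjusted p = 4e-06), and its binding receptor Gfra1 had 10.50 and 10.54 in the uncut pools and 12.13 and 12.08 in the cut pools (log2 fold change 1.58, SE 0.10, limma adjusted p = 3.1e-05). Ret, the kinase that signals for the pair, had 7.38 and 7.63 in the uncut pools and 6.33 and 6.40 in the cut pools (log2 fold change -1.14, SE 0.14, limma adjusted p = 0.00068). Ligand and binding receptor were thus above, and the kinase below, both uncut pools. Among neurotrophins Bdnf rose by 0.62 and the common receptor Ngfr by 3.93, while the kinases Ntrk2 and Ntrk3 fell by 0.65 and 2.02. The call of Ntrk2 was lost without control uncut replicate 1 (limma adjusted p = 0.0597). The sorting receptor Sorcs1 had 8.54 and 8.40 in the uncut pools and 5.83 and 5.10 in the cut pools (log2 fold change -3.002, SE 0.30, limma adjusted p = 0.00022), and its relative Sorcs2 rose by 1.04. Over both families 5 of 14 genes rose and 7 fell.

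In the EGF family 3 of 14 genes rose and 6 fell (3 fell without control cut replicate 2 or control uncut replicate 2). Btc, betacellulin, had 6.04 and 5.95 in the uncut pools and 10.62 and 10.55 in the cut pools (log2 fold change 4.59, SE 0.13, limma adjusted p = 1.8e-06). Tgfa had 9.10 and 9.34 in the uncut pools and 8.12 and 8.36 in the cut pools (log2 fold change -0.98, SE 0.15, limma adjusted p = 0.002), and Hbegf fell by 0.98, a call lost without control uncut replicate 2 (limma adjusted p = 0.0535). Ligands of the same receptor thus moved in both directions. Egf had 5.47 and 5.69 in the uncut pools and 6.60 and 7.21 in the cut pools and rose by 1.33, a call lost without control cut replicate 2 (limma adjusted p = 0.102) or without either control uncut replicate (adjusted p = 0.0881 and 0.0549). The receptors Egfr, Erbb2 and Erbb3 did not pass, at -0.09, -0.10 and 0.25.

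Of 24 FGF genes 8 rose and 4 fell, the falls no more frequent than the 17.5% of all genes (5 higher without control uncut replicate 1, and 2 lower without it or without control cut replicate 2). Fgf1 had 11.12 and 11.16 in the uncut pools and 7.77 and 7.43 in the cut pools (log2 fold change -3.54, SE 0.16, limma adjusted p = 6.6e-06), and Fgf5, dim in uncut nerve, had 4.43 and 4.25 in the uncut pools and 8.86 and 8.63 in the cut pools (log2 fold change 4.41, SE 0.20, limma adjusted p = 7.9e-06). One fell and the other rose, each with no overlap. Fgf7 fell by 0.67. The ERK feedback genes Spred1 and Dusp6, which FGF and other kinase receptors induce, rose by 0.75 and 0.57, and Spry1 and Spry4 did not pass (0.01 and -0.50).

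The insulin-like growth factor gene Igf1 and the binding protein genes Igfbp2 and Igfbp3 rose. Igf1 had 11.14 and 11.14 in the uncut pools and 12.49 and 12.31 in the cut pools (log2 fold change 1.26, SE 0.11, limma adjusted p = 0.00013), Igfbp2 had 5.02 and 5.23 in the uncut pools and 8.09 and 8.93 in the cut pools (log2 fold change 3.39, SE 0.38, limma adjusted p = 0.00044) and Igfbp3 had 9.24 and 8.91 in the uncut pools and 11.64 and 11.01 in the cut pools (log2 fold change 2.25, SE 0.25, limma adjusted p = 0.00037). The cut pools were above the uncut pools in all 3. Igfbp6 fell by 1.001. Met, the hepatocyte growth factor receptor, had 9.78 and 9.75 in the uncut pools and 11.91 and 11.86 in the cut pools (log2 fold change 2.12, SE 0.09, limma adjusted p = 5.8e-06). The heparin-binding factors Mdk and Ptn rose by 2.49 and 0.90, and the lymphatic factor Vegfc fell by 1.12. Over these families 14 of 40 genes rose and 8 fell. The risers were 9 without control cut replicate 1, and the falls 2, 3 and 5 without control cut replicate 2, control uncut replicate 1 and control uncut replicate 2.

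Tgfb1 had 7.60 and 7.94 in the uncut pools and 9.68 and 9.72 in the cut pools (log2 fold change 1.93, SE 0.13, limma adjusted p = 3.7e-05) and the receptor Tgfbr1 10.03 and 9.98 in the uncut pools and 11.24 and 11.42 in the cut pools (log2 fold change 1.33, SE 0.10, limma adjusted p = 5.9e-05). Bmp7 had 8.99 and 8.99 in the uncut pools and 7.79 and 7.97 in the cut pools (log2 fold change -1.11, SE 0.16, limma adjusted p = 0.0015), and Chrdl1, a secreted BMP antagonist, had 11.16 and 11.13 in the uncut pools and 9.08 and 9.01 in the cut pools (log2 fold change -2.10, SE 0.16, limma adjusted p = 5.8e-05). The first pair was above and the second below uncut nerve in both cut pools. Smad3, which carries TGF-beta signals, rose by 0.75. Of 41 genes 12 rose and 11 fell (7 rose without control uncut replicate 1, and 6 fell without either control cut replicate or without control uncut replicate 2).

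In the hedgehog pathway the ligands moved in opposite directions. Dhh, the ligand of myelinating Schwann cells, had 11.91 and 11.75 in the uncut pools and 9.95 and 9.70 in the cut pools (log2 fold change -2.01, SE 0.16, limma adjusted p = 6.8e-05), and Shh had 9.38 and 9.70 in the uncut pools and 12.31 and 12.76 in the cut pools (log2 fold change 2.997, SE 0.28, limma adjusted p = 0.00017). Disp1, which releases the ligands, fell by 0.94, and the transcription factors Gli2 and Gli3 did not pass (-0.23 and 0.14). Of 15 genes 2 rose and 6 fell, with 3 falls without control cut replicate 1 and 2 without control uncut replicate 2.

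**Figure D4:**
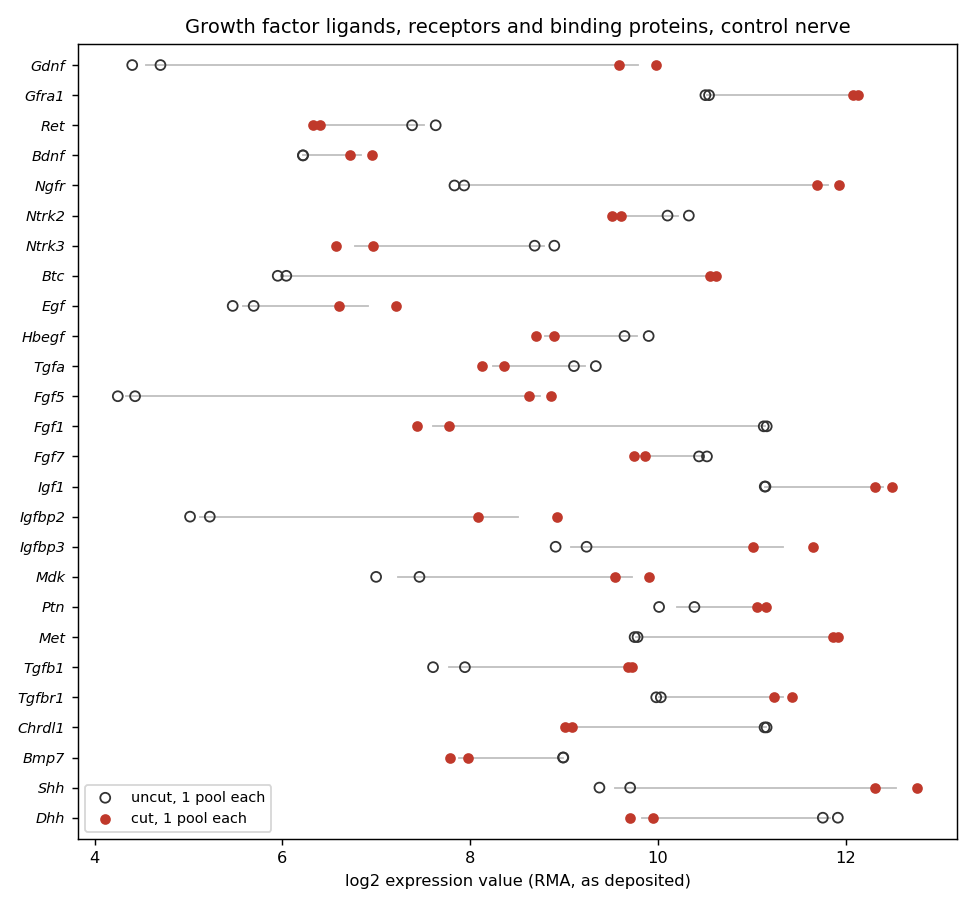
Log2 expression values of growth factor ligands, receptors and binding proteins in control nerve, 1 point per pool, open circles uncut and filled circles cut, with a grey line between group means. Gdnf and Gfra1 lie to the right after the cut and Ret to the left, and Btc and Tgfa, ligands of one receptor, lie on opposite sides.

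Of 41 Wnt genes 17 fell and 5 rose (10 lower without control uncut replicate 2). Rspo1, which amplifies Wnt signals, had 9.50 and 9.24 in the uncut pools and 7.56 and 7.64 in the cut pools (log2 fold change -1.77, SE 0.16, limma adjusted p = 0.00015), and Lgr5, its receptor, had 7.81 and 7.42 in the uncut pools and 6.23 and 6.09 in the cut pools (log2 fold change -1.45, SE 0.14, limma adjusted p = 0.00018). Fzd3, a Wnt receptor, fell by 1.43, and Znrf3, which removes such receptors, by 0.95. The inhibitor gene Wif1 had 3.55 and 3.49 in the uncut pools and 9.84 and 10.06 in the cut pools (log2 fold change 6.43, SE 0.17, limma adjusted p = 1.7e-06), and Nkd2, an inhibitor inside the cell, had 6.19 and 6.84 in the uncut pools and 9.16 and 9.10 in the cut pools (log2 fold change 2.61, SE 0.21, limma adjusted p = 9.1e-05). Both inhibitors were higher in both cut pools. Wnt4, Ror2 and Fzd8 rose by 0.89, 0.85 and 0.95. Of 23 Notch genes 5 rose and 2 fell, with 2 or 3 risers by limma without any 1 control array or mutant uncut array, and at most 1 fall without control cut replicate 2 or any 1 uncut array. The receptor Notch1 rose by 0.79, and the ligands Jag1 and Dll1 did not pass (-0.19 and -0.18).

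Among guidance cues for axons, semaphorins and their receptors went both ways. Of 30 semaphorins, plexins and neuropilins 11 rose and 9 fell. Without control cut replicate 1 the risers were 6, and without either control uncut replicate 7. Sema5a had 11.73 and 12.22 in the uncut pools and 9.14 and 9.24 in the cut pools (log2 fold change -2.79, SE 0.21, limma adjusted p = 5.8e-05) and Sema3b 12.15 and 11.96 in the uncut pools and 10.20 and 10.04 in the cut pools (log2 fold change -1.94, SE 0.15, limma adjusted p = 7.4e-05). Sema4f, a Schwann cell semaphorin, had 6.46 and 6.62 in the uncut pools and 8.88 and 8.42 in the cut pools (log2 fold change 2.11, SE 0.22, limma adjusted p = 0.00028), and Sema3e 8.05 and 8.01 in the uncut pools and 9.76 and 9.92 in the cut pools (log2 fold change 1.81, SE 0.11, limma adjusted p = 2.1e-05). The first pair fell and the second rose, without overlap. Among ephrins, netrins and slits 6 of 34 rose (17.65%), below the 22.8% of all genes. In the same list 9 fell (26.47%, beside 17.5% of all genes), and the median change was -0.01. The Eph receptor gene Epha5 had 6.12 and 5.96 in the uncut pools and 10.26 and 10.19 in the cut pools (log2 fold change 4.19, SE 0.17, limma adjusted p = 3.8e-06), whereas Ephb6, a receptor without kinase activity, had 8.81 and 8.83 in the uncut pools and 6.33 and 6.35 in the cut pools (log2 fold change -2.48, SE 0.17, limma adjusted p = 3.8e-05). Efnb3 and the netrin Ntn1 fell by 2.05 and 0.93.

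Of 33 cadherins and other adhesion genes 13 rose and 10 fell (6 fell without either control uncut replicate). E-cadherin, encoded by Cdh1, had 11.65 and 11.47 in the uncut pools and 6.23 and 5.58 in the cut pools (log2 fold change -5.65, SE 0.20, limma adjusted p = 2.5e-06), and the leucine-rich repeat gene Lrrtm4 fell by 4.04 to a dim level. Pcdh20, a protocadherin, had 6.53 and 6.22 in the uncut pools and 9.56 and 8.86 in the cut pools (log2 fold change 2.83, SE 0.30, limma adjusted p = 0.00033), and Cd44, the hyaluronan receptor, 9.77 and 10.04 in the uncut pools and 12.06 and 11.98 in the cut pools (log2 fold change 2.12, SE 0.18, limma adjusted p = 0.0001). Both rose. Lrrtm2 and Flrt3 rose by 2.46 and 1.95. N-cadherin, Cdh2, did not pass (-0.38), and Cdh19, a cadherin of Schwann cell precursors, rose by 0.70.

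The collagen list had 17 of 35 genes higher and 6 lower. Col18a1, a basement membrane collagen, had 9.71 and 9.83 in the uncut pools and 12.59 and 12.19 in the cut pools (log2 fold change 2.62, SE 0.14, limma adjusted p = 1.4e-05), and the fibrillar Col5a2 and Col1a1 rose by 1.53 and 1.61. Col23a1, a transmembrane collagen, had 10.17 and 10.11 in the uncut pools and 6.44 and 6.38 in the cut pools (log2 fold change -3.73, SE 0.26, limma adjusted p = 4.2e-05), and Col8a2 fell by 1.60. The chains of the common type IV network, Col4a1 and Col4a2, did not pass (-0.31 and -0.11). Among other matrix genes 18 of 55 rose and 14 fell (8 fell without control cut replicate 2 or control uncut replicate 1). Tnc, the matrix protein tenascin C, had 7.06 and 7.37 in the uncut pools and 12.80 and 12.73 in the cut pools (log2 fold change 5.55, SE 0.17, limma adjusted p = 1.8e-06). Fbn2, a fibrillin of developing tissue, had 5.79 and 6.22 in the uncut pools and 9.98 and 10.39 in the cut pools (log2 fold change 4.18, SE 0.28, limma adjusted p = 3.4e-05), and Gpc1, a membrane-anchored heparan sulphate proteoglycan, 8.89 and 8.69 in the uncut pools and 11.99 and 11.66 in the cut pools (log2 fold change 3.03, SE 0.17, limma adjusted p = 1.9e-05). In the 3 genes the cut pools lay at least 2.77 above the uncut pools. The small leucine-rich proteins of mature connective tissue Omd, Fmod and Ogn fell by 1.61, 1.54 and 1.50.

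Matrix proteases and inhibitors had 17 of 37 higher and 5 lower. Mmp17, a membrane-anchored metalloproteinase, had 7.36 and 7.36 in the uncut pools and 10.10 and 9.43 in the cut pools (log2 fold change 2.40, SE 0.20, limma adjusted p = 8.7e-05), and Adamts4, an aggrecanase, 6.52 and 6.38 in the uncut pools and 8.63 and 8.72 in the cut pools (log2 fold change 2.22, SE 0.20, limma adjusted p = 0.00015). Both rose without overlap. Mmp14 and Mmp2, which it activates, rose by 1.79 and 1.09, and the plasminogen activator Plat and the urokinase receptor Plaur by 1.32 and 1.28. The inhibitor Timp1 rose by 3.68, and Timp3 and Reck fell by 0.73 and 1.09.

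Cell division genes were mostly higher. Of 57 mitosis genes 55 rose (median 2.17) and Cdc25b and Pttg1 did not pass, and of 45 DNA replication genes 34 rose (median 0.80). Pbk, a mitotic kinase, had 6.25 and 6.36 in the uncut pools and 10.68 and 10.38 in the cut pools (log2 fold change 4.23, SE 0.20, limma adjusted p = 8.9e-06), Cdk1, the kinase that drives mitosis, 5.94 and 6.32 in the uncut pools and 9.81 and 9.36 in the cut pools (log2 fold change 3.46, SE 0.19, limma adjusted p = 1.5e-05), and Cenpf, a kinetochore protein, 4.62 and 5.43 in the uncut pools and 8.99 and 8.77 in the cut pools (log2 fold change 3.85, SE 0.24, limma adjusted p = 2.9e-05). All 3 had higher values in both cut pools. In replication, Mcm5 and Mcm6, of the helicase, rose by 1.79 and 1.73, Uhrf1 by 2.53 and thymidine kinase, Tk1, by 2.32. Pold1 and Orc1 did not pass, at 0.07 and 0.00. Uncut levels of Birc5, Bub1 and Brca1 were dim.

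A pair of promoter motifs of the cell cycle, the CHR (TTTGAA) and the CCAAT box (CCAAT), were searched on both strands. The CHR was in 17 of 47 mitosis genes with a window (36.17%) against 10.34% of all genes, and CCAAT in 36 of 47 (76.60%) against 35.79%. E2F sites (TTTCGCGC, TTTGGCGC or TTTCCCGC) were in 10 of 38 replication genes (26.32%) against 3.01%, in 5 of the 28 called and in 5 of the 10 not called. In the lysosomal list above the CLEAR element was in 3 of 23 called genes. The motif of AP-1, the factor family of c-Jun, searched as TGANTCA, was in 0 of 33 lineage transcription factor genes, 0 of 11 EGF family genes, 0 of 7 neurotrophin and GDNF family genes and 2 of 23 matrix protease genes, against 4.35%. The EGR motif, searched as GCGNGGGCG, was in 2 of 15 axon contact genes and 3 of 16 sphingolipid genes, against 8.92%. No match says only that these letters are not in the window. The windows of Mki67, which holds both motifs of mitosis genes, and of the repressor gene E2f7, which rose by 1.79 and holds an E2F site, are shown with matches in capitals. Mki67 lies on the minus strand at chr7:135716380-135716629 with 2 CHR and 3 CCAAT matches, and E2f7 on the plus strand at chr10:110745189-110745438 with 1.
Mki67: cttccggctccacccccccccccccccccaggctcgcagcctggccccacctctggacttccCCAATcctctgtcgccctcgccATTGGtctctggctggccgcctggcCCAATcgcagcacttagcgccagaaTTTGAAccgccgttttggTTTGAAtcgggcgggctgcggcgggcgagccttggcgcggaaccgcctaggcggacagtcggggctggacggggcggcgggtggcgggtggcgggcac
E2f7: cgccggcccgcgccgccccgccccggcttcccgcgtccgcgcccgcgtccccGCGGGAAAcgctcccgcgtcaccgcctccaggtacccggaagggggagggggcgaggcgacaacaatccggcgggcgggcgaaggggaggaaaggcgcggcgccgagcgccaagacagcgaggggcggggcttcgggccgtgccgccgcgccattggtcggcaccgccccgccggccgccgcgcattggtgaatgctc

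At the entry to the cycle 17 of 36 genes rose and 4 fell. Ccnd1, cyclin D1, had 10.25 and 10.56 in the uncut pools and 12.74 and 12.87 in the cut pools (log2 fold change 2.40, SE 0.13, limma adjusted p = 1.2e-05), and Ccnd3 did not pass (-0.38). The CDK inhibitor Cdkn1b fell by 0.96. Gadd45a, a stress gene that also rises in denervated muscle, had 8.35 and 8.53 in the uncut pools and 12.31 and 12.74 in the cut pools (log2 fold change 4.08, SE 0.25, limma adjusted p = 2.3e-05), and Eda2r, a p53 target that muscle expresses, had 5.17 and 4.83 in the uncut pools and 8.63 and 9.79 in the cut pools (log2 fold change 4.21, SE 0.41, limma adjusted p = 0.0002). The p53 targets Mdm2, Ccng1 and Zmat3 rose by 0.51, 0.81 and 0.73, Sesn1 fell by 1.57, and Cdkn1a and Phlda3 did not pass (-0.62 and -0.14).

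Transcription factors of the lineage had 18 of 46 higher and 7 lower. Egr2, the master factor of myelination, had 11.86 and 11.87 in the uncut pools and 9.09 and 9.12 in the cut pools (log2 fold change -2.76, SE 0.09, limma adjusted p = 1.9e-06), and Nr4a2 had 10.68 and 10.75 in the uncut pools and 8.84 and 8.45 in the cut pools (log2 fold change -2.07, SE 0.20, limma adjusted p = 0.00018). Sox4 had 9.26 and 9.61 in the uncut pools and 12.50 and 12.54 in the cut pools (log2 fold change 3.09, SE 0.14, limma adjusted p = 6.6e-06), Runx1 had 6.32 and 6.86 in the uncut pools and 8.55 and 9.31 in the cut pools (log2 fold change 2.34, SE 0.26, limma adjusted p = 0.00042) and Hmga2, a chromatin protein of embryonic tissue, had 6.47 and 6.57 in the uncut pools and 10.89 and 10.99 in the cut pools (log2 fold change 4.42, SE 0.22, limma adjusted p = 1.1e-05). The first pair fell and the other 3 rose with no overlap. Pou3f1, a factor of promyelinating cells, rose by 0.89. Runx1 is also induced in denervated muscle.

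Bcl2 family and death genes had 14 of 34 higher and 5 lower. The risers were 9 without control cut replicate 1 or control uncut replicate 1, and the falls 3 without the former. Bcl2l11, the death-promoting protein Bim, had 9.50 and 9.88 in the uncut pools and 11.19 and 11.02 in the cut pools (log2 fold change 1.42, SE 0.22, limma adjusted p = 0.0017), and Bak1 rose by 0.95 and Casp8 by 0.93. Bcl2l2, which protects cells, fell by 1.19.

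In the respiratory chain and citrate cycle 3 of 54 genes rose and 4 fell (median 0.00), with at most 1 riser by limma without any 1 of the 8 arrays, and 1 and 2 falls without control cut replicate 2 and control uncut replicate 2. In glycolysis 7 of 33 rose and 9 fell (5 fell without control cut replicate 2 or without either control uncut replicate). Pfkfb4, which raises the flux through glycolysis, had 7.34 and 7.45 in the uncut pools and 9.89 and 9.71 in the cut pools (log2 fold change 2.41, SE 0.11, limma adjusted p = 8.1e-06), Hk2 rose by 0.91, and Slc2a1, the glucose carrier of barrier cells, fell by 1.04. The lactate carrier Slc16a1 fell by 0.91.

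Ribosomal protein genes had a median of 0.18 with 7 of 33 called higher, 1 of them without control cut replicate 1 or either control uncut replicate, and 4 without control cut replicate 2 or either mutant cut replicate. In the endoplasmic reticulum 13 of 36 folding and stress genes rose and 3 fell (7 or 8 risers without control cut replicate 1 or either control uncut replicate, and 1 fall without control cut replicate 2 or either control uncut replicate). The disulphide isomerases Pdia3 and Pdia6 rose by 0.98 and 0.88, and Hspa5, Ddit3 and Xbp1 did not pass (0.24, -0.43 and -0.07). Hspb8, a small heat shock protein of muscle, had 9.23 and 9.30 in the uncut pools and 10.90 and 12.66 in the cut pools (log2 fold change 2.52, SE 0.54, limma adjusted p = 0.0083), with replicate 2 of the cut pools much higher.

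For oxidative stress and iron 13 of 32 genes rose and 7 fell (3 fell without either control uncut replicate). The subunits of the phagocyte oxidase Cybb and Cyba rose by 2.10 and 2.02. Cybb had 8.51 and 8.91 in the uncut pools and 10.85 and 10.77 in the cut pools, and the iron exporter Slc40a1 had 6.42 and 6.50 in the uncut pools and 8.25 and 8.15 in the cut pools (log2 fold change 1.74, SE 0.22, limma adjusted p = 0.00076). Srxn1, a target of the factor Nrf2, rose by 1.76, and Gclc, another target that makes glutathione, fell by 0.74.

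Transcripts known from neurons included genes of both directions, 8 of 21 higher and 8 lower. Nefl, the light neurofilament, had 7.27 and 7.08 in the uncut pools and 3.75 and 4.16 in the cut pools (log2 fold change -3.22, SE 0.20, limma adjusted p = 2.5e-05), reaching dim levels. Sncg, gamma-synuclein, had 12.62 and 12.28 in the uncut pools and 10.02 and 9.45 in the cut pools (log2 fold change -2.71, SE 0.32, limma adjusted p = 0.00051), and the motor protein gene Kif5a fell by 2.20. Tubb3 had 5.15 and 5.54 in the uncut pools and 7.95 and 8.96 in the cut pools (log2 fold change 3.11, SE 0.33, limma adjusted p = 0.00031) and Thy1 8.46 and 8.54 in the uncut pools and 11.08 and 10.95 in the cut pools (log2 fold change 2.51, SE 0.10, limma adjusted p = 3.8e-06), both higher in both cut pools. Gap43 and Uchl1, which denervated Schwann cells also express, rose by 2.55 and 1.31.

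Of 29 endothelial markers 3 rose and 10 fell (6 and 5 fell without control cut replicate 2 and control uncut replicate 2). The lipid transporter of the blood-nerve barrier Mfsd2a had 9.99 and 9.66 in the uncut pools and 6.43 and 5.89 in the cut pools (log2 fold change -3.66, SE 0.21, limma adjusted p = 1.8e-05), the organic anion carrier Slco1c1 6.99 and 6.69 in the uncut pools and 4.97 and 5.23 in the cut pools (log2 fold change -1.74, SE 0.15, limma adjusted p = 0.00013) and the tight junction gene Cldn5 9.97 and 10.35 in the uncut pools and 9.07 and 9.26 in the cut pools (log2 fold change -0.99, SE 0.22, limma adjusted p = 0.0091). All 3 fell, and the call of Cldn5 was lost without control uncut replicate 2 (limma adjusted p = 0.0608). The pan-endothelial genes Pecam1, Cdh5, Tie1 and Emcn did not pass, at 0.10, -0.24, 0.41 and -0.04. Aplnr, a receptor of sprouting vessels, rose by 1.70. Among pericyte and smooth muscle markers 3 of 18 rose and 5 fell (3 fell without control cut replicate 2 or control uncut replicate 2): Smtn had 10.34 and 10.42 in the uncut pools and 8.51 and 8.13 in the cut pools (log2 fold change -2.06, SE 0.16, limma adjusted p = 6.2e-05), and the pericyte genes Rgs5 and Pdgfrb did not pass (0.16 and -0.17). Mfsd2a is not limited to endothelium, and its cell of origin was not tested.

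Perineurial markers fell in 10 of 15 cases (median -0.80). Cldn1, the claudin of the perineurial barrier, had 10.92 and 10.78 in the uncut pools and 9.83 and 9.96 in the cut pools (log2 fold change -0.95, SE 0.12, limma adjusted p = 0.0006), Tjp1 fell by 0.83 and Lypd2 by 1.38. Cldn19 (-3.63), on the same list, is a tight junction protein of myelin. Fibroblast markers had 8 of 24 higher and 5 lower (3, 3 and 2 lower without control cut replicate 1, control cut replicate 2 and control uncut replicate 1). Lrrc15 and Fap, markers of activated fibroblasts, rose by 1.46 and 0.69, Tnmd, of tendon and epineurium, by 1.91, and Pdgfra did not pass (-0.16). Among adipocyte markers 8 of 15 fell, 5 without control cut replicate 2 or control uncut replicate 1. The brown fat genes Ucp1 and Cidea fell by 3.27 and 2.42.

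Muscle transcripts were higher, and they differed between pools. Of 27 contractile genes 18 rose (median 1.41), but 6 without control cut replicate 2 and 7 without control uncut replicate 1. Mb, myoglobin, had 10.60 and 9.20 in the uncut pools and 12.52 and 13.31 in the cut pools (log2 fold change 3.02, SE 0.56, limma adjusted p = 0.0044), and Des, desmin, had 9.08 and 9.32 in the uncut pools and 11.76 and 12.05 in the cut pools (log2 fold change 2.71, SE 0.21, limma adjusted p = 6.8e-05). The slow-fibre genes Myh7 and Tnnc1 had 8.83 and 7.15 in the uncut pools and 5.81 and 6.94 in the cut pools and 10.17 and 8.50 in the uncut pools and 6.55 and 8.13 in the cut pools, with uncut pools so far apart that neither passed. Genes of denervated or regenerating muscle rose in 14 of 25 cases and fell in 2 (1 fell without either control uncut replicate), with means per array of 7.16 and 7.20 in uncut and 8.73 and 9.81 in cut nerve. Trim63, a muscle ubiquitin ligase, had 6.98 and 7.69 in the uncut pools and 11.18 and 12.11 in the cut pools (log2 fold change 4.31, SE 0.42, limma adjusted p = 0.0002), Chrna1, the acetylcholine receptor of the muscle endplate, 6.26 and 6.59 in the uncut pools and 10.37 and 11.80 in the cut pools (log2 fold change 4.66, SE 0.44, limma adjusted p = 0.00017), and Myog, myogenin, 5.20 and 5.56 in the uncut pools and 7.74 and 10.38 in the cut pools (log2 fold change 3.68, SE 0.70, limma adjusted p = 0.0048). Replicate 2 of the cut pools was the higher in each.

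Genes known from epithelium or milk had 3 of 15 higher, Krt8, Krt18 and Clca3a2, and 1 lower. The count of risers depended on single arrays through other members, as these 3 kept their calls without any 1 array. The lower gene was Cdh1, which was bright in uncut nerve, as described above. Krt8 had 5.73 and 6.13 in the uncut pools and 9.18 and 9.92 in the cut pools (log2 fold change 3.63, SE 0.27, limma adjusted p = 5.7e-05) and Csn2, beta-casein, 3.50 and 4.14 in the uncut pools and 11.47 and 7.03 in the cut pools, a difference of 5.43 that did not pass (limma adjusted p = 0.058). Csn3 and Csn1s1 also were high in replicate 1 of the cut pools, with 5.48 and 5.90 in the uncut pools and 10.90 and 7.33 in the cut pools and 5.74 and 5.28 in the uncut pools and 10.49 and 6.89 in the cut pools. Epcam, a marker of epithelium, did not pass (0.16).

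Of 22 lymphocyte, natural killer, neutrophil and mast cell markers 5 rose (22.73%), a share near the 22.8% of all genes. The granzyme gene Gzmb had 5.89 and 5.57 in the uncut pools and 12.07 and 12.002 in the cut pools (log2 fold change 6.31, SE 0.32, limma adjusted p = 1.1e-05), but Cd3e, Nkg7 and Gzma did not pass (0.08, 0.45 and 0.63). Klrd1 and the mast cell gene Tpsab1 rose by 1.57 and 1.69. Interferon response genes rose in 6 of 25 cases (3 without control uncut replicate 1), Irf8, a myeloid factor, by 1.94, while Ifit1, Ifit3 and Stat2 did not pass (0.17, -0.47 and 0.07). Among clock genes 6 of 15 fell and 1 rose, but 2 fell without control cut replicate 2 and 1 without control uncut replicate 1, and the riser was lost without the latter or control cut replicate 1. Hlf fell by 1.67, and Arntl and Per2 did not pass (0.10 and -0.69). Neither red blood cell gene tested, Alas2 at -1.37 and Slc4a1 at -1.46, passed, although both did without either mutant uncut replicate.

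Where the control response differed from that of the mutant was tested by the interaction of genotype and injury. It was called for 20 of 12093 genes (0.165%), with the control response more positive in 12 (0.0992%) and more negative in 8 (0.0662%). At an unadjusted p under 0.05 there were 731. With no interaction at all, a share of about 0.05 of the 12093 genes would pass that threshold. Such unadjusted counts are therefore not read as differences. The count by limma was 0 without mutant cut replicate 1, mutant uncut replicate 1 or mutant uncut replicate 2, with 758, 703 and 756 genes at an unadjusted p under 0.05. It was 1 without control cut replicate 1 or control uncut replicate 1, 2 without control uncut replicate 2, 5 without control cut replicate 2 and 45 without mutant cut replicate 2. Of the 30 genes at the ends of the control ranking, Clca3a2 and Cdh1 were among the 20. Clca3a2, dim in control uncut nerve, changed by 6.66 in control and 0.99 in mutant nerve (difference 5.66, limma adjusted p = 0.037). It had 7.35 and 7.68 in mutant uncut and 7.72 and 9.30 in mutant cut pools, so that both mutant uncut pools lay above both control uncut pools. Cdh1 changed by -5.65 and -3.001 (difference -2.65, adjusted p = 0.036). Among the list members described above, Btc (4.59 and 2.95), Arg1 (3.08 and 0.87), Krt8 (3.63 and 0.39) and Lrrtm4 (-4.04 and -1.64) were called too. Krt8 had 8.54 and 8.48 in mutant uncut and 8.63 and 9.17 in mutant cut pools, with both mutant uncut pools above both control uncut pools. The difference did not pass for Gdnf (5.23 and 3.12, limma adjusted p = 0.056), Olig1 (6.48 and 3.86, adjusted p = 0.056), Shh (2.997 and 1.46, adjusted p = 0.32) or Krt18 (4.91 and 1.61, adjusted p = 0.056). Krt18 likewise had 8.79 and 9.31 in mutant uncut and 10.38 and 10.94 in mutant cut pools. For Hmgcs1 the 2 responses were -2.65 and -2.55, for Ctsd 1.78 and 1.80 and for Pbk 4.23 and 4.24, and the differences did not pass (limma adjusted p = 1, 1 and 1).

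**Figure D5:**
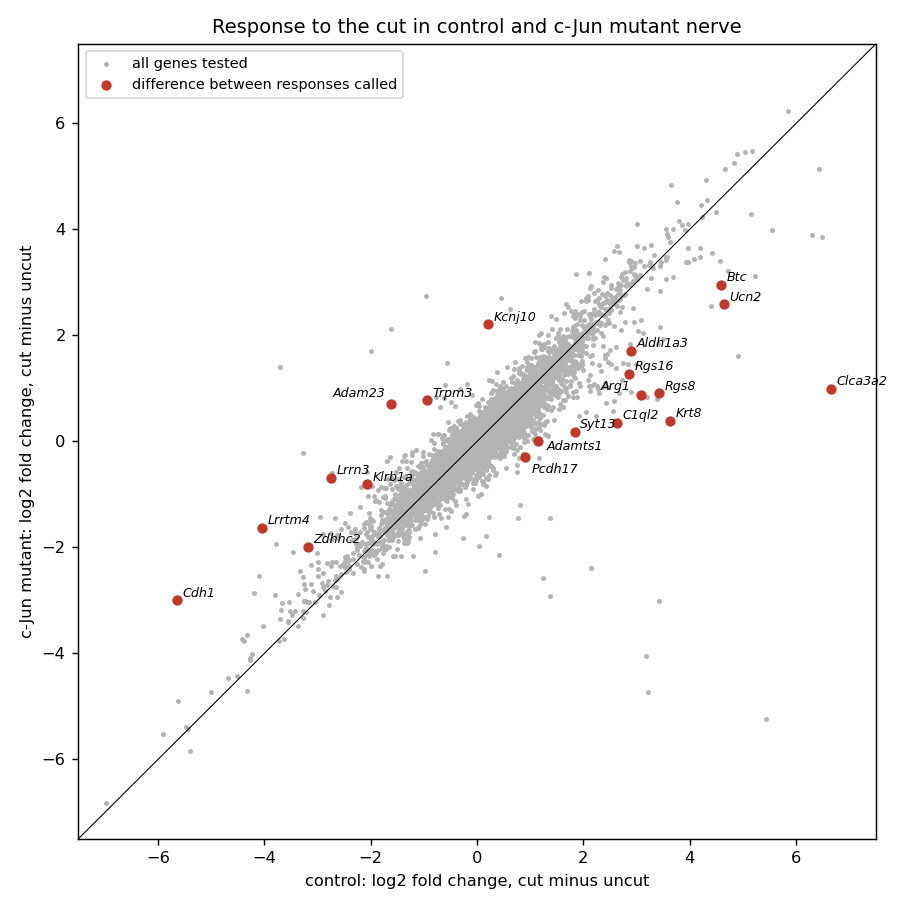
Log2 fold change after the cut in c-Jun mutant nerve (vertical axis) against control nerve (horizontal axis) for all 12093 genes tested, with the line of equal change and, in red with names, the 20 genes whose 2 responses were called different. Clca3a2 lies farthest from the line among the named genes, at 6.66 in control and 0.99 in mutant nerve.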

How the data were processed

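The deposited table holds log2 expression for each probe set on each array, made by the authors with RMA in the affy package, per the submitters' processing notes, and the versions were not given in the sources used here. The RMA method subtracts background, equalises the distributions of the arrays and summarises the probes of a set. It can shrink differences at low signal, and the number of arrays limits the precision.

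Of 45101 probe sets, 64 were controls, 34945 had 1 gene symbol, 932 several and 9211 none, and 34741 matched RefSeq by gene number with no symbol changed. Probe sets above the median of their array on at least 2 of 8 arrays were kept (24162, 20943 of them with 1 symbol), and each of the 12093 genes was read from the brightest of its kept probe sets. All 8 arrays entered 1 limma fit (limma 3.58.1 in R 4.3.3) with a mean per group and moderated variances (4 residual and 3.59 prior degrees of freedom), Benjamini-Hochberg adjusted over all genes. In data simulated from this table for the injury contrast in control nerve over 12093 genes, the fit called 14%, 88%, 100% and 100% of 50 genes each with true log2 changes of 0.5, 1, 2 and 3, and 10 of 11893 unchanged genes. The simulation changed far fewer genes than the 40.3% called in control nerve, with noise independent between genes. Its rates therefore need not hold for the real contrast. Promoter windows came from RefSeq.

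The comparison and the 54 lists were chosen with earlier results of these data known. Named genes were the 15 highest and 15 lowest called changes, of each list up to 6 called members with the largest absolute change, and pairs such as a ligand and its receptor. The text also names 133 genes chosen after their values were seen. Alternatives were a stricter filter, no filter, at least 2-fold changes, probe sets as units, averaging a gene's probe sets, quantile normalization, median centring, array weights, other variance models, the control arrays alone, a replicate block and leaving out each array.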

Additional observations from a re-analysis of the deposited data

Results flagged for a closer look

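For 20 genes the response to the cut differed between control and mutant nerve by the interaction of genotype and injury in limma (adjusted p between 0.031 and 0.044, n = 2 pools in each of 4 groups). Each value here is the control change minus the mutant change on the log2 scale.

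The control response was the more positive for Clca3a2 by 5.66, for the keratin gene Krt8 by 3.24, and for Rgs8, a brake on G protein signals, by 2.51. Among secreted proteins and enzymes the same held for C1ql2 by 2.29, for arginase 1, Arg1, by 2.21, for the peptide hormone gene Ucn2 by 2.05, for the EGF family ligand Btc by 1.64, for the retinoic acid enzyme Aldh1a3 by 1.20 and for the matrix protease Adamts1 by 1.13. It held too for Syt13 by 1.65, for Rgs16 by 1.59 and for the protocadherin Pcdh17 by 1.18. In 11 of these 12 the mutant change had the sign of the control change, and in Pcdh17 the changes were 0.89 and -0.29. For Clca3a2 and Krt8 the uncut nerves differed: Clca3a2 had 7.35 and 7.68 in the mutant and 3.81 and 4.66 in the control uncut pools, and Krt8 had 8.54 and 8.48 against 5.73 and 6.13. The cut pools of Krt8 had 8.63 and 9.17 in mutant and 9.18 and 9.92 in control nerve.

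The control response was the more negative for E-cadherin, Cdh1, with a difference of -2.65, for the synaptic adhesion gene Lrrtm4 with -2.41, for the disintegrin gene Adam23 with -2.33 and for Lrrn3 with -2.05. Further differences were -2.00 for the potassium channel gene Kcnj10, -1.72 for the ion channel gene Trpm3, -1.26 for the natural killer receptor gene Klrb1a and -1.19 for the palmitoyl transferase gene Zdhhc2. Adam23 and Trpm3 changed by -1.63 and -0.94 in control and by 0.70 and 0.77 in mutant nerve, and Kcnj10 by 0.21 and 2.21.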

How the results depend on the processing

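The 4877 genes called in control nerve were 1511 when at least 2-fold changes were asked for, 8436 of 24162 with probe sets as units, and between 3388 and 4715 without 1 array. Of 1434 distinct list genes tested 821 were called, 430 with the 2-fold limit and fewer than 821 when any 1 array was left out. The 20 interactions were 11 with the stricter filter, 33 with the mean of probe sets, 33 with no filter, 31 with a trended and robust variance, and 0 with the unmoderated statistic (714 at an unadjusted p under 0.05; limma with moderation gave 731). They were 0 to 45 without 1 array.

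Of 449 genes named or eligible, 378 were called in control nerve, and 51 of these lost the call without some 1 array. Ndufs4 reversed its sign with the mean of probe sets, to -0.0389 (limma adjusted p = 0.751).

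Replicate numbers were shared by all groups. Deviations of same-numbered arrays from their group means correlated across genes with r = 0.18 for cut and uncut control nerve and r = 0.02 to 0.34 over all pairs of groups, above 0.1 in 5 of 6. Replicate 2 was also the higher cut pool in both genotypes for Ankrd1, Myf6, Ppp1r27, Sln and Chrna1. Whether a number marks shared mice or a shared day is not stated in the labels, and the arrays were not treated as pairs. With the replicate block 5543 genes, 906 distinct list genes and 25 interactions were called, and 0 of the 378 called genes lost the call by limma.

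Both pools of a group limit every estimate, probe sets below the median were mostly left out, and levels near background have uncertain changes. A whole nerve segment was measured, so that cell numbers and RNA per cell cannot be told apart, and muscle and epithelial transcripts varied between pools of a group.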
